A study of Rattus norvegicus with 5 samples.

Results

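The comparison described here is between 2 arrays of Fao cells, one taken after 45 min of insulin and one after 15 min, out of 5 arrays that followed the cells over an hour. Fao cells are an established line from a rat liver tumour, so all samples share one origin, and they still express many hepatocyte genes. All 5 samples were grown for 2 days with 10% serum and then starved for 16 h in medium that held dexamethasone, a synthetic glucocorticoid, at 10 nM, and were collected at 0, 15, 30, 45 or 60 min of 10 nM insulin, so the glucocorticoid is part of every sample. Each time had 1 array, no p-value can be given, and cells kept for these times without insulin were not analysed here. Members of the comparison were the probes marked well above background on both arrays, 20206 of the 41012 probes on the design.

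Insulin binds a receptor tyrosine kinase and acts through the PI3K-AKT branch, which moves FoxO transcription factors out of the nucleus and so shuts off liver genes of glucose output, and through the RAS-ERK branch, which switches on immediate early genes within minutes. Immediate early genes code mostly for transcription factors whose mRNAs are short-lived, and phosphatases and RNA-binding proteins among their products end the response. The comparison of 45 with 15 min asks which transcripts differed between the start of that response and a later phase of it.

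Of 43379 spots that were not controls, the 15 min array had 22341 well above background and the 45 min array 22328. No spot was saturated. The 75th percentile of signal, to which each array was scaled, was 266 at 15 min and 255 at 45 min. Both arrays lay on slide 1 with those of 0 and 30 min, and since these 4 were placed in time order, a position effect and a time effect cannot be told apart. The 60 min array lay on slide 2. The 8 labelled spike-in transcripts detected on both arrays had a median change of 0.044 log2 units and lay between -0.065 and 0.057. Hepatocyte markers fitted the label of the cells: 23 of 25 were above background at 15 min and 22 at 45 min, with summed levels of 1897 and 2087 times the 75th percentile. Of 22 markers of other cell types 9 were above background on each array, with summed levels of 2.88 and 2.78, and the other 13 were not above background on either. Of the endothelial markers Cdh5 and Kdr were above background and Pecam1, Vwf, Lyve1 and Stab2 were not, of the macrophage markers Cd68 and Clec4f were and Adgre1 and Cd163 were not, and Cd3e of T cells was not. Of markers of mesenchymal and bile duct cells, Col1a2, Des and Sox9 were above background, and Col3a1, Pdgfrb, Lrat, Krt7 and Epcam were not. The part of other cells in the changes was not tested. Clec4f, a Kupffer cell lectin, was the one marker of these past 1.5-fold: its dim probe read -3.92, -2.63, -3.98, -4.15 and -4.37, high at 15 min alone. Each array read RNA pooled over many cells, so fewer cells with a transcript and less of it in each cell cannot be told apart.

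Below, a level is a probe's processed signal divided by its array's 75th percentile, as log2, and a change is the level at 45 min minus that at 15 min. Most transcripts differed little. The 20206 changes had a median of -0.01 and a standard deviation (SD) of 0.241, and 97.5% of the probes changed by less than 1.5-fold. At least 2-fold higher at 45 min were 84 probes, 0.416% of those compared, and 32 were at least 2-fold lower, 0.158%. At 1.5-fold the counts were 280 higher, 1.39%, and 226 lower, 1.12%. The ratio of higher to lower probes was thus smaller at 1.5-fold than at 2-fold. The 2 directions also differed in brightness. When probes were split by brightness into 4 equal bins, the dimmest held 24 of the 32 that were 2-fold lower but 29 of the 84 that were 2-fold higher, and the brightest held 2 and 16. The SD of the change was 0.304 in the dimmest bin and 0.185 in the brightest.

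**Figure D1:**
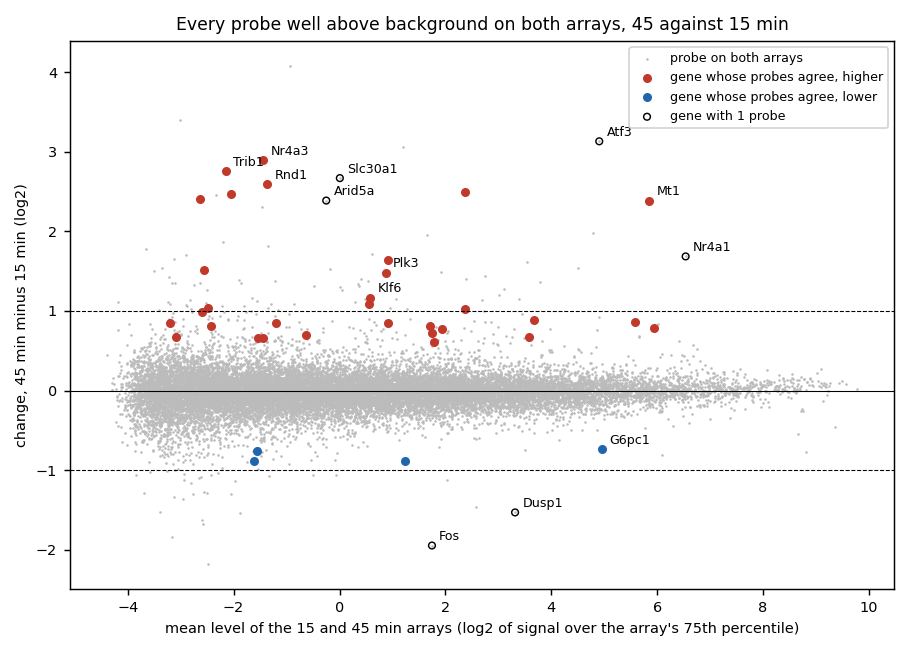
Change from 15 to 45 min (vertical, log2) against the mean level of the 2 arrays (horizontal, log2 over the 75th percentile) for 20206 probes, with dashed lines at 2-fold. Red and blue points are probes of the 15 higher and 2 lower genes whose probes agree, and black rings are genes with 1 probe. The points past 2-fold include bright transcripts such as Atf3, Mt1 and Nr4a1 above and Dusp1 below, while both G6pc1 probes lie inside the lower dashed line.

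Probes printed in 10 spots gave the only spread within an array. Over 145 such probes with at least 8 usable spots on both arrays, the median SD between spots was 0.138 on each, which makes the SD of a difference between single spots 0.195. This covers printing, hybridisation and reading, and not the difference between cultures. In 10 of these probes every spot at 45 min lay above every spot at 15 min, and in 7 every spot lay below. Icam1, the adhesion molecule that leukocytes bind, changed most upwards: its spots averaged 2.46 ± 0.13 at 15 min (SD, n = 10 spots) and 3.73 ± 0.14 at 45 min (n = 10), a change of 1.27. Jun, a subunit of the AP-1 transcription factor, averaged 4.42 ± 0.21 at 15 min (n = 10) and 5.36 ± 0.10 at 45 min (n = 8). Adm, which encodes the vasodilator peptide adrenomedullin, changed most downwards, from 3.88 ± 0.07 (n = 9) to 3.13 ± 0.15 (n = 10), a change of -0.75. Gnas, the stimulatory G protein subunit, had a dim probe that was higher by 0.75 and a bright one at -0.11, so its probes disagreed.

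**Figure D2:**
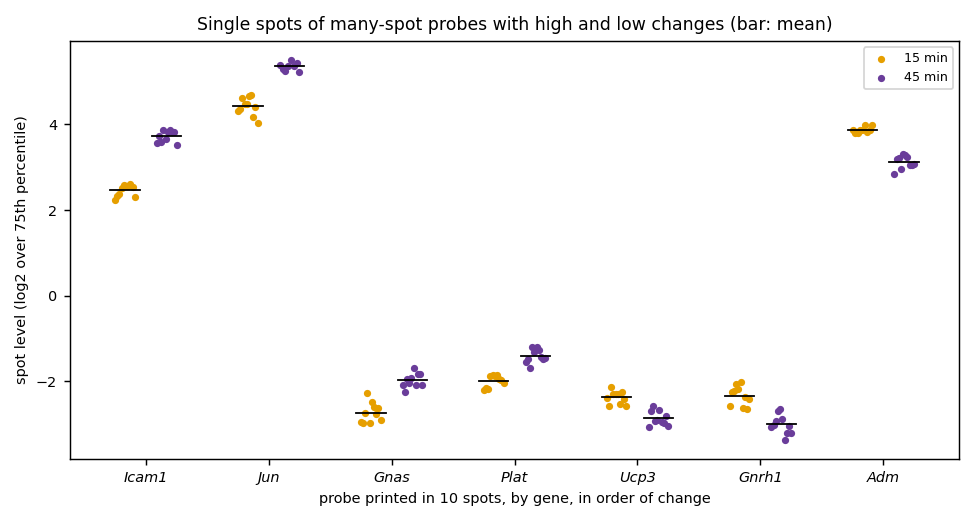
Level of every usable spot (vertical, log2 over the 75th percentile) at 15 min (orange) and 45 min (purple) for the 4 probes with the highest change and 3 of the 4 with the lowest among those printed in 10 spots, with bars at the means. The spots of the 2 arrays do not overlap for Icam1, Jun, Gnas, Plat, Gnrh1 and Adm, and they touch for Ucp3.

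Agreement between probes of one gene gave a stricter view. Of 8975 genes with a symbol, 2171 had 2 or more probes on both arrays. In 15 of them, 0.691%, every probe was at least 1.5-fold higher at 45 min, and in 2, 0.0921%, every probe was at least 1.5-fold lower. At 2-fold by every probe the counts were 5, 0.23%, and 0. No gene had probes past 1.5-fold in opposite directions. Of the 64 genes with any probe past 1.5-fold, all probes had the same sign in 51, and the median gap between the probes of a gene was 0.139 over all 2171. The 15 higher genes were Nr4a3, Trib1, Rnd1, Mt1, Plk3, Klf6, Tnfrsf12a, Phlda1, Srf, Zfp868, Enc1, Stbd1, Mars2, Zfp746 and Cfap418, and the lower ones Apln and G6pc1. Nearest the limit were the smaller change of Stbd1, 0.61, inside it, and Id3, an inhibitor of DNA binding, outside it with probes at 0.55, 0.56 and 0.68. With a normexp background in place of the scanner software's, fitted without 5 deviant spots, 8 of the 15 and 1 of the 2 kept every probe past 1.5-fold, while Phlda1, Srf, Zfp868, Stbd1, Mars2, Zfp746, Cfap418 and Apln did not. That background also added 50 to every signal, which draws changes towards 0, most for dim probes. The part of this offset in the losses was not tested.

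**Figure D3:**
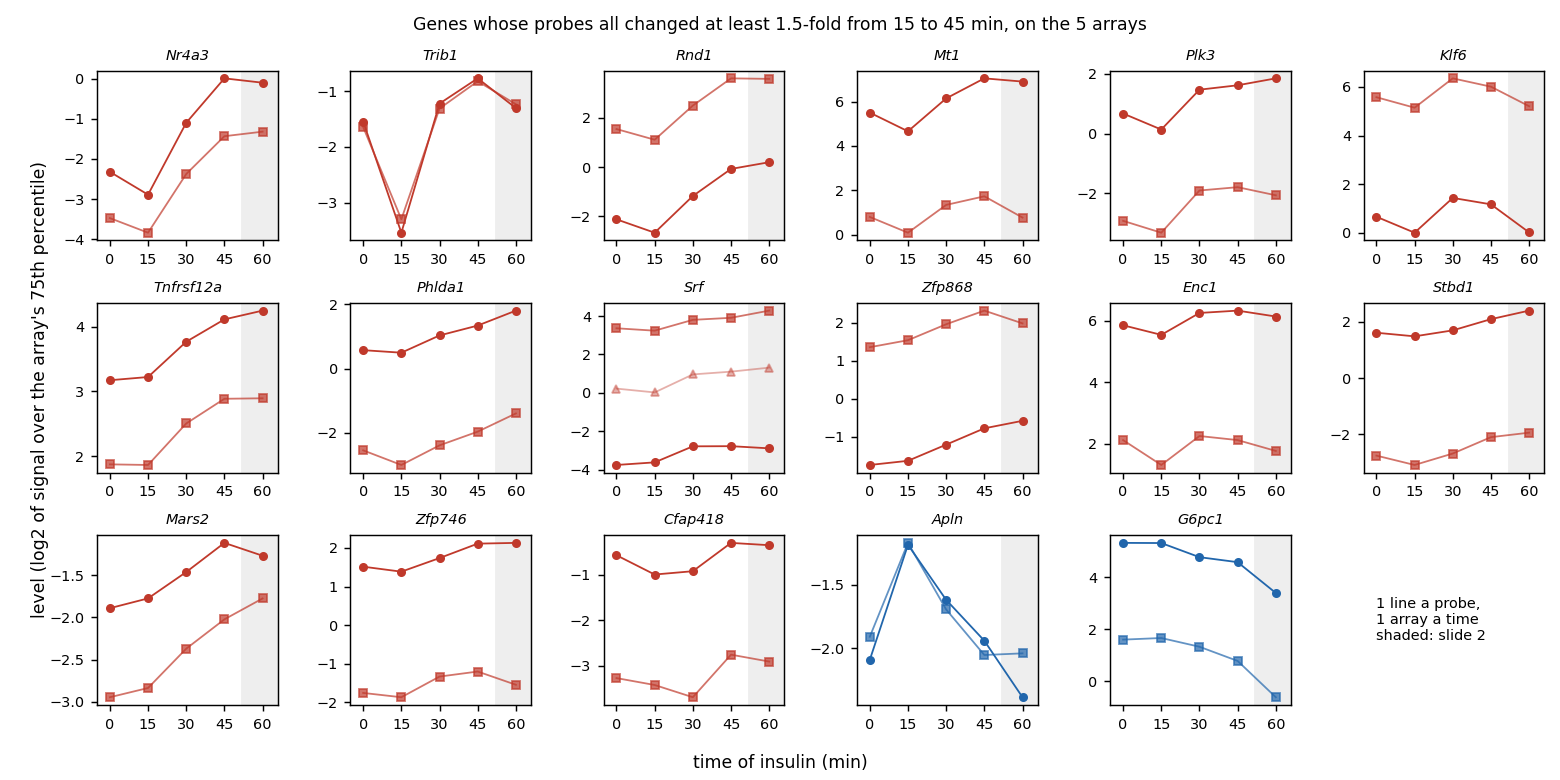
Level (vertical, log2 over the 75th percentile, a scale for each gene) of every probe of the 15 higher (red) and 2 lower (blue) genes at 0, 15, 30, 45 and 60 min of insulin, with 1 array a time and slide 2 shaded. The probes of a gene differ in brightness, the Mt1 and Enc1 probes part at 60 min, and the mean levels of Nr4a3, Trib1, Rnd1, Mt1 and Plk3 are lowest at 15 min.

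Among transcription regulators, Nr4a3, an orphan nuclear receptor of the immediate early class, had the largest mean change of the 15. Its level averaged over 2 probes was -2.90, -3.36, -1.74, -0.71 and -0.71 at 0, 15, 30, 45 and 60 min, which put 45 min 6.27-fold above 15 min. The probes, on rn4 at chr5:64753210-64753269 and chr5:64754182-64754241, changed by 2.89 and 2.40, and the remaining probe of the gene was above background at 30 min alone. Nr4a3 was thus low on the 0 and 15 min arrays and high on those of 45 and 60 min. Its relative Nr4a1 had levels of 6.78, 5.69, 7.41, 7.38 and 7.20 in order of time at its 1 probe and was 3.22-fold higher. Here the 15 min array alone stood low. Nr4a2, the remaining receptor of the family, changed by 0.22.

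Klf6, a Krüppel-like zinc finger factor, had mean levels of 3.12, 2.57, 3.89, 3.59 and 2.61 and was 2.02-fold higher. It was highest at 30 min and back near its 15 min level at 60 min. Besides its 2 probes, 3 probes without a gene symbol lay within 5 kb on the same strand and changed by 1.14, 0.82 and 1.11. Srf, the serum response factor that drives many immediate early and actin genes, had mean levels of -0.06, -0.12, 0.66, 0.75 and 0.90 and was 1.82-fold higher by 3 probes with changes of 0.67, 0.84 and 1.08. Its level stood about the same at 0 and 15 min and higher on each of the 3 later arrays. The Srf promoter is shown because it holds CArG boxes, the sites that the Srf protein binds. It is given here in its 250 bases before the start, from the RefSeq table of GRCr8, chr9:21923826-21924075 on the plus strand, with CArG boxes in capitals.
Srf: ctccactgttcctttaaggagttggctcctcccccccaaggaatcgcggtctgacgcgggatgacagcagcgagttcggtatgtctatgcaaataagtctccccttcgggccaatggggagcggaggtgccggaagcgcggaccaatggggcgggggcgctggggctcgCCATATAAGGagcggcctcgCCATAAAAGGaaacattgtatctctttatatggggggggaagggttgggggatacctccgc
A CArG box, searched on both strands of 300-base promoters that end 50 bases after the start, was in 1.64% of 33469 promoters, and 7 promoters held 2 or more. The boxes of Srf begin at -81 and -61. The Klf6 promoter holds 1, at -201. Boxes were not particular to higher genes, as the promoter of the lower gene Rtp3 also holds 1, at -31. These motifs were chosen after the changes were known, and a match is not a measured site. Of 9 genes of the Srf target list on both arrays, which holds cytoskeletal genes and the secreted proteins Ccn1 and Ccn2, none passed 1.5-fold, with a median of -0.01, and Actb changed by 0.18 and 0.32 at its probes.

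Signalling proteins made up another group of the 15. Trib1, a Tribbles pseudokinase that brings proteins to a ubiquitin ligase, had mean levels of -1.60, -3.41, -1.27, -0.80 and -1.27 and was 6.11-fold higher. The 15 min array was far below the other 4. Its probes lay at chr7:96448453-96448512 and chr7:96448746-96448805 on rn4, and 2 probes without a symbol close by on the same strand changed by 2.45 and 3.06. Trib3, another Tribbles gene, was 1.79-fold higher by 1 probe, and its level was 6.44 at 45 min and between 5.58 and 5.89 on the other 4 arrays.

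Rnd1, whose product loosens cell adhesion, had mean levels of -0.28, -0.77, 0.67, 1.77 and 1.89 and was 5.82-fold higher. Its probes, at chr7:137418530-137418588 and chr7:137420891-137420950 on rn4, changed by 2.49 and 2.59. Rnd1 was higher on each array after 15 min than on the one before. Plk3, a Polo-like kinase induced by growth factors and stress, had mean levels of -1.12, -1.59, -0.22, -0.09 and -0.11 and was 2.83-fold higher. It differed little between the 3 later arrays. Tnfrsf12a, the receptor of the cytokine TWEAK, had mean levels of 2.52, 2.54, 3.14, 3.50 and 3.57 and was 1.94-fold higher. Phlda1, a pleckstrin-homology protein that the ERK branch induces, had levels of -0.99, -1.26, -0.68, -0.31 and 0.20 and was 1.92-fold higher. Enc1, an actin-binding Kelch protein, was 1.74-fold higher and had its lowest level, 3.42, at 15 min against 3.95 to 4.25 elsewhere.

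The remaining higher genes were smaller changes of other kinds. Stbd1, a glycogen-binding protein, was 1.74-fold higher, Mars2, the mitochondrial methionyl-tRNA synthetase, 1.67-fold, the zinc finger genes Zfp868 and Zfp746 1.76-fold and 1.62-fold, and Cfap418 1.60-fold. For these 5 the probe changes ran from 0.61 to 0.99.

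Mt1, a metallothionein, and the zinc transporter Slc30a1 are described together, a pair chosen after their changes were seen and not a fixed list. Metallothioneins bind zinc and other metals, Slc30a1 exports zinc from the cell, and the metal-sensing factor MTF-1 drives both through metal response elements. Mt1 had mean levels of 3.15, 2.38, 3.74, 4.39 and 3.84 and was 4.03-fold higher at 45 than at 15 min. Its probe at chr19:11261706-11261765 on rn4 changed by 2.38 and the one at chr19:11262268-11262327 by 1.64. The probes parted later: one read 5.50 at 0 min and 6.90 at 60 min, the other 0.80 and 0.77. Slc30a1 had levels of -1.01, -1.33, -0.06, 1.34 and 1.85 at its single named probe and was 6.36-fold higher. A probe without a symbol 3881 bases away on the same strand went from -2.98 at 15 min to 1.10 at 45 min, a change of 4.08 and the largest of all 20206 probes. Both transcripts were thus lowest at 15 min, and Slc30a1 was higher on each later array than on the one before. The bright Mt1 probe and the Slc30a1 probe each lay within 2 rows and columns of a probe of another gene that was also at least 2-fold higher. The neighbour of Mt1 was not above background on both arrays, so its change is a bound. Without probes that had such a neighbour Mt1 kept a single probe and no longer counted among the agreeing genes. The part of array position in these values was not tested. The promoters of both genes are shown because they hold metal response element cores, in capitals (TGCACNC or TGCGCNC on either strand). The 250 bases before the start are those of chr19:10832976-10833225, minus strand, for Mt1 and chr13:106021769-106022018, plus strand, for Slc30a1, on GRCr8.
Mt1: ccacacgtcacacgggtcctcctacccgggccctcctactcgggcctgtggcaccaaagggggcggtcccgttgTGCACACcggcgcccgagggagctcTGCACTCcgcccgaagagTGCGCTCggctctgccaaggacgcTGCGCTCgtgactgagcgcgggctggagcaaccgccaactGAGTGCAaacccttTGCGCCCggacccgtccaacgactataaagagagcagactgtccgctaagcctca
Slc30a1: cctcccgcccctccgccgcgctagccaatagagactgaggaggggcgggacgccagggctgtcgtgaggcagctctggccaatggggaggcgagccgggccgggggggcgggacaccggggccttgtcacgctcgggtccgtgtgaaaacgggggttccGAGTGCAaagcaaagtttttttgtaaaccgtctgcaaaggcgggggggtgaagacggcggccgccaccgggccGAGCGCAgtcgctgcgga
The Mt1 promoter holds 6 cores, beginning at -176, -151, -133, -109, -69 and -55, and that of Slc30a1 holds 2, at -91 and -18. Cores were not particular to this pair. The promoter of Nr4a1 also held 2, and those of Arid5a, Stbd1, Mars2 and the lower gene Dusp1 held 1 each. Over 33469 promoters 24.2% held at least 1 core of either form, 6.36% at least 2 and 0.0388% at least 6. These cores too were chosen after the changes were known. Mt1 is also induced by glucocorticoids, which all samples received.

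Genes with 1 probe on both arrays have no second probe to check them. Of 6804 such genes with a symbol, 33 were at least 2-fold higher, 0.485%, and 11 at least 2-fold lower, 0.162%. Atf3, a stress-responsive member of the ATF/CREB family, had the largest mean change of the 8975 genes. Its levels were 4.76, 3.34, 6.64, 6.47 and 5.92, which made 45 min 8.76-fold higher than 15 min and the 15 min array the lowest. Arid5a, an RNA-binding protein that stabilises inflammatory mRNAs, had levels of -0.41, -1.44, 0.29, 0.94 and 0.92 and was 5.23-fold higher. Its spot also lay near another probe that was at least 2-fold higher, though not above background on both arrays. Lcn2, an iron-scavenging acute-phase protein, had levels of 0.31, -0.25, 0.79, 1.47 and 1.83 and was 3.29-fold higher. Tgm1, a transglutaminase, had levels of -0.61, -0.94, -0.34, 0.59 and 0.53 and was 2.88-fold higher. All 4 were lowest on the 15 min array.

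Fos, the partner of Jun in AP-1, had the lowest mean change of the 8975 genes. Its single probe, at chr6:109561099-109561158 on rn4, read 1.78, 2.72, 3.49, 0.77 and -0.57, so it was 3.85-fold lower at 45 than at 15 min and below its starting level. Its spot lay near a patch of 6 spots with raised local background on the 15 min array, but its own local background there was 39, against a median of 43 over the array. Dusp1, the phosphatase that switches off MAP kinases, had levels of 3.24, 4.08, 3.54, 2.55 and 2.31 and was 2.89-fold lower. It was highest at 15 min and below 0 min from 45 min on. Its spot had a neighbour of another gene that was also at least 2-fold lower, though not above background on both arrays. Rtp3, a receptor-transporting protein, had levels of 2.11, 2.60, 2.19, 1.47 and 1.26 and was 2.18-fold lower. All 3 were below their 0 min level at 45 and 60 min.

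The immediate early list therefore held both directions. Of its 31 members on both arrays 12 were at least 1.5-fold higher and 2 lower, against 1.45% and 0.758% of all 8975 genes, with a median change of 0.47 where that of all genes was 0.00. Besides Atf3, Nr4a1, Nr4a3, Trib1, Klf6, Srf and Jun, the higher members were the DNA-binding factor Csrnp1 (1.32), the growth arrest genes Gadd45a (1.36) and Gadd45g (0.67), the small MAF factor Maff (0.88) and Egr2 (0.79). The spot of the single Gadd45a probe lay near probes of other genes that were also at least 2-fold higher, though not above background on both arrays. Ier2 was lower with Fos, at -0.81. Egr1, a zinc finger factor that marks ERK activity, changed by -0.10, with levels of 4.58, 4.62, 5.55, 4.52 and 2.58. A small change between 15 and 45 min here spans a 30 min array that was higher than both. Myc changed by 0.13, Junb by -0.15, Btg2 by 0.08 and Ier3 by -0.01. Jun followed a like course with another end: 4.08, 4.44, 6.07, 5.36 and 4.60.

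Feedback genes of the ERK branch were mixed too. Of the list's 17 genes on the array design 9 were above background on both arrays. Of these, Dusp5 (0.87), a nuclear ERK phosphatase, and Phlda1 were at least 1.5-fold higher and Dusp1 lower. Among all genes 1.45% were higher and 0.758% lower. The list median was 0.27. Dusp5 read 2.53, 2.11, 3.64, 2.98 and 3.01. Spry1, a Sprouty inhibitor of the branch, was just under the limit with probes at 0.48 and 0.67. The 5 dual phosphatases of the list on both arrays thus held 1 gene past the limit each way, while Dusp8 changed by -0.18, Dusp14 by -0.17 and Dusp16 by 0.27.

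Genes of the NF-kB response, an inflammatory transcription programme whose targets include its own inhibitors, had the highest median of the 27 lists. Of 16 on both arrays 9 were at least 1.5-fold higher by the mean over probes, against 1.45% of all genes, and none lower. Above 0 were 15, against 49.9% of all genes, and the median was 0.62. The chemokine Cxcl10 had levels of -1.90, -2.25, -0.95, -0.44 and 0.05 and was 3.52-fold higher. Cxcl1, which attracts neutrophils, had levels of 4.18, 2.73, 4.99, 4.35 and 3.08 and was 3.07-fold higher. Icam1 had levels of 2.56, 2.46, 3.18, 3.74 and 3.78 and was 2.42-fold higher. The 15 min array was lowest for each, and Cxcl1 was nearly as low at 60 min. Among inhibitors of NF-kB, Nfkbiz was 2.59-fold higher, Nfkbie changed by 0.99 and Nfkbib by 0.65, while Nfkbia, the best known, was among the 9 by a mean of 0.59 over probes at 1.54 and -0.37 that disagreed. Of the subunits, Rel changed by 0.86, Rela by 0.46, Nfkb2 by 0.12 and Nfkb1 by 0.02. Irf1, an interferon regulatory factor, was 2.18-fold higher. The Cxcl1 promoter is shown because it holds NF-kB motifs, in capitals (GGNNTTTCC on either strand): chr14:17479322-17479571 on GRCr8, minus strand.
Cxcl1: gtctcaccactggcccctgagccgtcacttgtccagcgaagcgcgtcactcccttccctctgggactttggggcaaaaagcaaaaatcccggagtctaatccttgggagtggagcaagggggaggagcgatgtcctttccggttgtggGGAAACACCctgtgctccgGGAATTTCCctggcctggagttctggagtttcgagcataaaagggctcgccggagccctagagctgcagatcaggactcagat
The matches begin at -102 and -83. Over 33469 promoters 6.05% held 1 or more and 0.305% at least 2. Of the 10 agreeing higher genes in the promoter table only Phlda1 held a match. None of the 10 held an AP-1 motif (TGANTCA, in 7.33% of promoters) or a cyclic AMP response element (TGACGTCA, in 1.83%), and Dusp1, not among the 10, held the latter at -124.

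Genes of glucose output and FoxO targets, which insulin represses in liver, had list medians near 0, with some members past 1.5-fold. G6pc1, the glucose-6-phosphatase that releases free glucose, had mean levels of 3.47, 3.50, 3.06, 2.69 and 1.40 and was 1.75-fold lower, with probe changes of -0.74 and -0.88. It stood at about one level at 0 and 15 min and was lower on each later array. A TATA box (TATAAA, in 14.2% of promoters) lies at -41 of its promoter. The only FoxO pattern searched, GTAAACA (in 3.78% of promoters), is not in the window. Other forms of FoxO site were not searched, so the promoter may still hold one. Pck1, which commits carbon to glucose synthesis, changed the other way, by 0.18 and 0.28 at its probes, and the spots of the second separated completely between the arrays. Over 15 genes of gluconeogenesis G6pc1 alone passed 1.5-fold, where 0.758% of all genes were lower, and the median was 0.06. Igfbp1, a secreted IGF-binding protein repressed by insulin, changed by -0.07, and the 4 probes of Irs2, an insulin receptor substrate, lay between -0.15 and 0.03.

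Of 23 FoxO targets on both arrays 3 were at least 1.5-fold lower, against 0.758% of all genes. They were G6pc1, Ccng2, an atypical cyclin (-0.98), and Angptl4, an inhibitor of lipoprotein lipase (-0.60). Gadd45a and Trib1 were higher, against 1.45% of all genes, and the median was -0.10. Ccng2 read -1.21, -1.05, -1.67, -2.03 and -2.63, the same order of arrays as G6pc1 after 15 min. Klf15, a factor for amino acid use in fasting, had levels of 5.27, 5.12, 4.91, 4.63 and 4.04, each below the one before, and changed by -0.49. Apln, which encodes the peptide apelin, was the second gene with agreeing lower probes, at 1.76-fold, but by another course: mean levels of -2.00, -1.18, -1.66, -2.00 and -2.21. It was high at 15 min alone and level at 0 and 45 min.

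The ATF4 list, genes for amino acid uptake and synthesis, had 19 of 21 members above 0, against 49.9% of all genes, with a median of 0.30. Past 1.5-fold were Trib3 (0.84), the stress sensor Sesn2 (0.79), the amino acid transporter Slc7a5 (0.74) and Aldh18a1 of proline synthesis (0.59), with Asns at 0.57. Slc7a5 read 0.80, 0.69, 0.48, 1.43 and 0.48, high at 45 min alone, as Trib3 was. Sesn2 read 0.65, -0.13, 0.20, 0.66 and 0.32, with 45 min at the level of 0 min. Atf4 itself changed by 0.18 and Ddit3 by -0.02.

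Clock genes gave 4 members of 11 past 1.5-fold, all higher, against 1.45% of all genes, with a median of 0.13. Nfil3, a repressor in the clock, had levels of 3.34, 2.02, 3.04, 3.46 and 3.03 and was 2.72-fold higher. It was low at 15 min alone. Bhlhe40, another repressor, had levels of -0.19, -0.65, -0.10, 0.65 and 1.13 and was 2.46-fold higher. Per2, a period gene, had levels of 0.47, 0.11, 0.53, 1.01 and 1.87 and was 1.87-fold higher. Both went on to their highest level at 60 min. Per1 changed by 0.68, whereas Bmal1, Clock, Cry1, Dbp and Tef lay between 0.02 and 0.17 and Cry2 and Nr1d1 at -0.23 and -0.22.

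Lower members were most numerous in the hypoxia list. Of 19 hypoxia genes 4 were at least 1.5-fold lower, against 0.758% of all genes, and none higher: Pfkfb3, a bifunctional enzyme that stimulates glycolysis (-1.12), Adm, Ankrd37 (-0.71) and P4ha1, a collagen prolyl hydroxylase (-0.64), with a median of -0.09 over the list. Vegfa changed by 0.17 and Slc2a1 by 0.00. The Pfkfb3 probe was dim, stood high at 15 min alone and had a neighbour of another gene that was also 2-fold lower. Of 13 TGF-beta and BMP feedback genes the inhibitory Smad7 (-0.82) and Smad6 (-0.63), with 1 probe each, were at least 1.5-fold lower. Id3 (0.60) was higher by its mean. Of all genes 0.758% were lower and 1.45% higher, and the list median was -0.07. Tgif1 changed by -0.53, and the 3 probes of Id2 lay between -0.43 and -0.30. In the cell cycle list 25 of 27 genes were below 0, where 49.9% of all genes were above 0, and the median was -0.13. Only Cdc25a, a phosphatase that activates cyclin-dependent kinases, passed 1.5-fold (-0.59). Mcm4, of the replicative helicase, changed by -0.44 and -0.53 and Ccna2 by -0.37 and -0.42. Ribosome biogenesis lay the other way: 18 of 21 genes lay above 0, against 49.9% of all genes, with a median of 0.11. None passed 1.5-fold, and Rrs1 was highest at 0.38.

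Most metabolic genes stayed within 1.5-fold. None of 24 genes of cholesterol synthesis and uptake and none of 21 of fatty acid and triglyceride synthesis passed it, with medians of 0.04 and 0.00. Of 20 glycolysis genes Pfkm (-0.68) and Pfkfb3 were lower, against 0.758% of all genes. Of 20 insulin signalling genes Trib3 alone passed, where 1.45% of all genes were higher, and Insr, the receptor, changed by -0.12. None of 18 heat shock, 16 unfolded protein response, 16 housekeeping or 22 hepatocyte marker genes passed. Fgg, a fibrinogen chain, was highest among the last, with probes at 0.44 and 0.57, and Gapdh changed by -0.01 and 0.00.

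The remaining lists were small, and their members past 1.5-fold are given beside 1.45% of all genes higher and 0.758% lower. Of 17 glucocorticoid-induced genes, Mt1, Lcn2 and Per1 were higher and Dusp1 and Angptl4 lower, with a median of 0.11. Of 13 interferon genes, Irf1, Ifit2 (0.70) and Socs2 (0.72) were higher. Of 9 Krüppel-like factors, Klf6 and Klf5 (0.77) were higher. Of 20 p53 and survival genes, Plk3, Gadd45a and Sesn2 were higher, and Cdkn1a changed by -0.03. Of 19 mRNA decay genes Zc3h12a (0.64), a nuclease for inflammatory mRNAs, was higher. Of 16 growth factors Fgf21 (0.65), a fasting hormone of liver, was higher and stood high at 45 min alone.

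**Figure D4:**
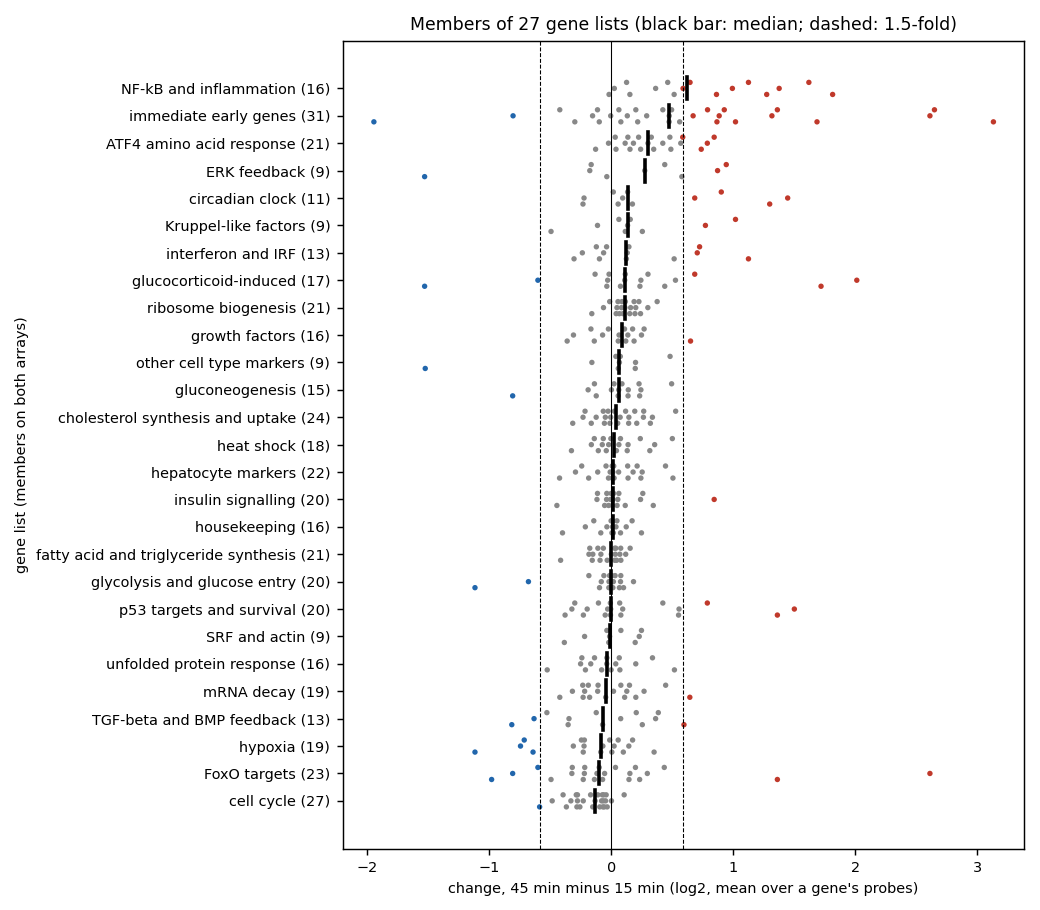
Change from 15 to 45 min (horizontal, log2, mean over a gene's probes) of the members of 27 lists, ordered by median (black bars), with dashed lines at 1.5-fold and members past them in red or blue. NF-kB and inflammation has the highest median, 0.62, then immediate early genes, 0.47, and cell cycle the lowest, -0.13.

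The other arrays place the 15 agreeing higher genes in the course. Of the 15 agreeing higher genes 12 were lower at 15 than at 0 min and 11 had their lowest level of the 5 arrays at 15 min, as 16.3% of 8841 genes on all 5 arrays did. Because 15 min is the low side of the comparison, such genes are more likely to be chosen, and nothing is read from these counts. The highest level was at 45 min in 6, at 60 min in 7 and at 30 min in 2, and since 45 min is the high side this too is a description alone.

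The arrays of 0, 30 and 60 min took no part in choosing the genes. Between 0 and 60 min 13 of the 15 were higher at 60 min, where 50.9% of 8841 genes were, and 10 by at least 1.5-fold, where 2.31% of genes were, with a median of 0.89. Klf6 and Enc1 were the exceptions, at -0.51 and -0.03. These are means over probes, and for Mt1 they rest on the brighter of its 2 probes. Between 0 and 30 min 14 were higher, where 52.7% of genes were, and 7 by at least 1.5-fold, where 0.871% were, with a median of 0.57. Cfap418 was the exception, at -0.39. G6pc1 and Apln were both lower at 60 than at 0 min. Of the 33 higher genes with 1 probe 28 were higher at 60 min, 22 of them at least 1.5-fold, and 26 at 30 min. Of the 11 lower ones 10 were on all 5 arrays, and all 10 were lower at 60 than at 0 min, but 5 were higher and 5 lower at 30 min. Fos was among those higher at 30 min. Since slide and time cannot be told apart at 60 min, the 30 min counts are the ones from a single slide.

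**Figure D5:**
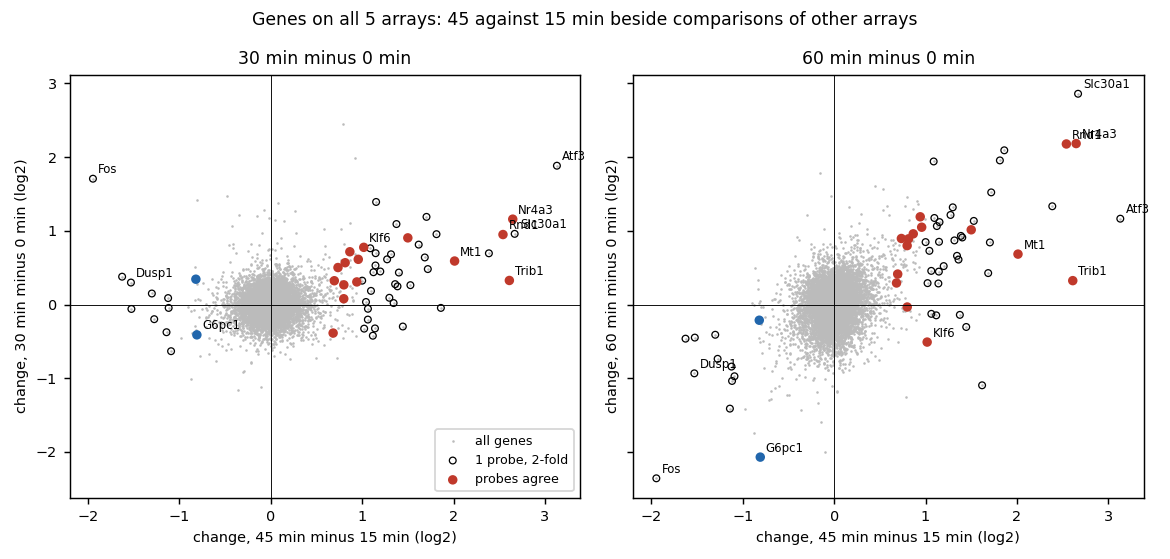
Change between 2 arrays not used in the comparison (vertical, log2; left 30 minus 0 min, right 60 minus 0 min) against the change from 15 to 45 min (horizontal, log2) for the 8841 genes detected at every time; genes are not replicates. Filled points are the 15 higher (red) and 2 lower (blue) genes whose probes agree and rings the genes with 1 probe and a 2-fold change, and 14 of the 15 red points lie above 0 at left and 13 at right.

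Some transcripts were above background on only one of the arrays, 772 probes at 45 min and 791 at 15 min. For these a change is a bound, the level on one array over the lowest level well above background, or over the probe's own dim signal where that was higher, on the other. At least 2-fold by this bound were 202 probes higher at 45 min, 26.2% of the former, and 186 higher at 15 min, 23.5% of the latter. The largest among genes with a symbol were Slc24a3, a sodium-calcium exchanger, at least 8.19-fold higher at 45 min, and Prkg1, a cyclic GMP-dependent kinase, at least 15.7-fold lower. The Slc24a3 spot had a probe of another gene beside it that was also higher at 45 min by its bound. Each of the 10 genes with the largest bounds rested on 1 probe that was above background on 1 of the 5 arrays, and the other probes of Slc24a3, Prkg1 and Frmd4b were not above background on any array. Probes with 1 spot and a 2-fold change or bound also lay near each other: 41.8% of 285 higher ones had a higher probe of another gene within 2 rows and columns, and 9.12% had a lower one. For 218 lower ones the shares were 38.5% with a lower neighbour and 11.0% with a higher one. Of those above the median level of detected probes, 5 of 42 higher and 3 of 8 lower had a neighbour of the same direction.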

How the data were processed

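Total RNA of 5 Fao samples, grouped by the time in their labels, was measured on 1-colour rat arrays (700 ng RNA, Cy3, per the labels' protocols), 1 array for each time. Per the file headers, intensity was read and background-subtracted with Agilent Feature Extraction 9.5.3.1 on design 014879, annotated on rn4. The matrix the authors deposited for the series gives 19777 probes as log2 values, made by a step not given in the sources used here; its 19746 non-control probes are those well above background on all 5 arrays, and its 45 minus 15 min differences matched those used here (median gap 0.0099). A difference of 2 columns does not depend on how its probes were centred. The column medians were 0.00 at 15 and 45 min.

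Control spots were left out, as were outlier spots (126 at 15 min and 100 at 45 min). Spots of a probe were averaged, the intensity divided by the 75th percentile of non-control spots and log2 taken. Probes were named through RefSeq GRCr8, 11140 by accession and 8541 by symbol, and 21331 kept the name in the files. Promoters came from a RefSeq GRCr8 table that held 10 of the 15 higher agreeing genes, both lower ones and 9 of 11 named genes with 1 probe. No genome was used, so probes were not placed in exons or UTRs.

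No test was possible with 1 array a time. Counting rules were tested on simulated data. The members, the 27 gene lists (475 of 619 entries on both arrays) and the naming rule were chosen with earlier results of these data known. The rule named genes whose probes agree, the 8 largest changes each way among bright 2-fold genes with 1 probe, the 4 largest changes of each list, the 4 highest and 4 lowest many-spot probes, the 5 largest bounds each way and 11 genes whatever their change. Other genes were named afterwards as list members, and a few genes the rule named are not reported here. Alternatives covered scaling, background (normexp with an offset of 50, limma 3.58.1, R 4.3.3), filters and thresholds. Python 3.11.15, numpy 2.4.6 and pandas 2.3.3 were used.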

Additional observations from a re-analysis of the deposited data

How the results depend on the processing

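Scaling on the median, on the 75th percentile of probes on all 5 arrays or by quantiles, the series matrix values and the filter to probes on all 5 arrays all kept the 15 higher and 2 lower genes. These alternatives were mild. The scalings and matrix values moved the median change from -0.0098 to values between -0.0093 and 0.00014. All of these genes were already above background on all 5 arrays, so that filter could remove none. Leaving out probes next to another 2-fold probe, an alternative chosen after seeing the data, removed Mt1 alone. Against 84 probes at least 2-fold higher and 32 probes at least 2-fold lower, 280 were higher and 226 lower at 1.5-fold, and with every probe at 2-fold 5 genes were higher and 0 lower. Without a filter on dim probes, with values floored, 340 probes were 2-fold higher and 289 lower, 18 genes had agreeing higher probes and 5 lower, and the medians were 0.023 for ERK feedback and 0.41 for NF-kB and inflammation. Of the 15 higher genes 14 were kept, and Nr4a3, whose change was the largest of them, was lost. Restricted to signal above the median, 27 probes were higher and 4 lower, 5 genes had agreeing higher probes and 1 lower, and the medians were 0.24 for SRF and actin and 0.41 for the circadian clock. This kept 5 of the 15 and lost Nr4a3, Trib1, Rnd1, Plk3, Phlda1, Zfp868, Stbd1, Mars2, Zfp746 and Cfap418, and Apln of the lower ones. A normexp background fitted on all spots was dominated by 5 spots of the 15 min array with a local background far above their signal. It gave 2125 probes 2-fold lower and 161 higher and 104 lower agreeing genes, of which 5 and 1 were shared with those reported. It reversed Cfap418 (-0.37), Fgf21 (-0.45), Id3 (-0.59), Irf1 (-0.10), Mars2 (-0.39), Plat (-0.33), Socs2 (-0.74) and Zc3h12a (-0.95). Medians of lists under it were 0.054 for ERK feedback, 0.10 for NF-kB, -0.10 for interferon, 0.42 for gluconeogenesis, 0.40 for cholesterol, 0.22 for fatty acid, 0.48 for glycolysis, 0.32 for glucocorticoid-induced, 0.82 for ATF4, -0.52 for TGF-beta, 0.31 for p53, 0.26 for hypoxia, 0.17 for cell cycle, 0.72 for ribosome biogenesis, 0.59 for heat shock, 0.27 for the unfolded protein response, -0.37 for growth factors, 0.60 for housekeeping, 0.63 for hepatocyte markers and -0.95 for other cell types. Refitted without those 5 spots, a choice made after seeing the data, normexp gave 44 probes higher and 4 lower, a median of 0.40 for NF-kB and 8 higher and 1 lower agreeing genes. Lost were Cfap418, Mars2, Phlda1, Srf, Stbd1, Zfp746, Zfp868 and Apln, with no gene gained. Both normexp fits also added 50 to every signal, and the part of this offset was not tested. No paired analysis was possible because every time had 1 array. Precision is limited by 1 array a time and, for dim probes, by signal over background.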
